A study of Mus musculus with 9 samples.

Results

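Nnmt and the hepatic methionine cycle were followed in liver RNA-seq through 10 of the 33211 genes of the deposited table, chosen by symbol. The genes were Nnmt and Aox1, which act on nicotinamide and on its methylated form, Mat1a and Mat2a, which make S-adenosylmethionine, Gnmt, Pemt and Gamt, which spend it, Ahcy, which clears what is left of it, and Bhmt and Bhmt2, which make methionine from homocysteine. All 10 passed the filter on low counts. The livers came from male mice, C57BL/6 in the labels and C57BL6/J in the study's methods, fed the same purchased high-fat diet (HFD), kept once opened in a freezer for 5 of them, the HFDfre group, and in a fridge for 4, the HFDfri group, with 1 library an animal as far as the labels state. P-values therefore measure the spread between these libraries. Per the study's methods the mice were young adults, the feeding ran side by side for several weeks, and the diet was stored equally long in both groups. Both groups ate HFD and no group on a standard diet was analysed here, so the comparison concerns the storage of the diet and not the diet itself. The study asked how storage acted on the liver and placed Nnmt downstream of the kinase PERK and the transcription factor ATF4.

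The methionine cycle turns methionine into S-adenosylmethionine, the methyl donor of most cellular methylations, and each methylation leaves S-adenosylhomocysteine, which is split to homocysteine and then either remethylated or passed on to cysteine. The liver carries most of the body's flow through this cycle. NNMT methylates nicotinamide, which draws on the methyl donor and keeps nicotinamide from being reused for NAD.

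Of the 10 genes, Gamt was lower in the liver of HFDfri mice, by a factor of 0.638, and it was the single gene of the set past an adjusted p of 0.05 in edgeR's quasi-likelihood test. That is 1 of 10 genes, against 1.05% of the 14220 genes tested, with 0.556% of them called lower and 0.499% called higher. Nnmt did not pass the test, with a mean level of 142 CPM in HFDfre and 162 in HFDfri. Its HFDfri libraries lay on both sides of all HFDfre libraries, 2 above and 2 below. Gnmt, at 576 CPM in HFDfre and 856 in HFDfri, and Aox1, at 67.5 and 46.6 CPM, did not pass either. For Gnmt, 1 HFDfri library stood apart from the other 3. CPM is the usual scaling of a gene's count to the size of its library, here after TMM, and log2 fold changes are given as HFDfri minus HFDfre with their standard errors. In whole liver, fewer cells of a type and less RNA per cell cannot be told apart.

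Library totals ran from 58614917 to 69353439 counts, with similar ranges in both groups. The composition of the libraries varied more. The ribosomal RNA-like locus Gm26924 took from 1.20% to 11.1% of a library in HFDfre and 0.466% to 5.21% in HFDfri. Mitochondrial genes took 11.4% to 19.8% in HFDfre and 8.93% to 13.6% in HFDfri. In the same order, the major urinary protein (Mup) genes took 5.12% to 8.94% and 9.17% to 14.4%. The 10 genes together took between 0.836% and 1.26%. Summed over 7 markers, the hepatocyte level was 87832 to 94351 CPM in HFDfre and 77813 to 109607 in HFDfri, the highest of them in HFDfri 1. No marker list of another liver cell came near this: 63.4 to 139 and 73.3 to 97.2 CPM for Kupffer cells and macrophages, 124 to 195 and 98.0 to 176 for stellate cells, 78.2 to 96.3 and 62.8 to 105 for sinusoidal endothelium, 25.5 to 46.5 and 23.9 to 47.0 for cholangiocytes, and 4.63 to 9.68 and 4.11 to 5.73 for lymphocytes. Red blood cell markers summed to 447 to 614 CPM in HFDfre and 273 to 889 in HFDfri, and 1 of 5, Alas2, was called (0.40 ± 0.08, edgeR adjusted p = 0.0486). The other 4 had negative log2 fold changes, the lowest being -0.39 for Hba-a1. None of the other marker genes tested was called.

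The study measured Nnmt by RT-qPCR as well, and its primers are shown to place that assay on the gene that the RNA-seq counts cover. By that assay, in larger groups of mice than those sequenced, the study reported higher Nnmt mRNA in HFDfri. It also reported higher NNMT protein. Nnmt (ENSMUSG00000032271) lies on the minus strand at chr9:48591877-48605153 of GRCm38. The forward primer matches exon 2, at chr9:48603397-48603417, and the reverse primer matches exon 3, at chr9:48592182-48592201, both in the coding part of the principal transcript. The product is 245 bases long on that transcript, and no other annotated Nnmt transcript holds both sites.
Nnmt forward: aggaaccaggagcctttgact
Nnmt reverse: cctgagggcagtgcgatagg

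Nnmt was measured at 131.9, 146.3, 144.6, 129.7 and 158.2 CPM in HFDfre 1 to 5. In HFDfri 1 to 4 it was at 229.7, 126, 96.2 and 196.7 CPM. HFDfri 1 and HFDfri 4 were higher than every HFDfre library, and HFDfri 2 and HFDfri 3 were lower than every one, so that the HFDfre libraries sat together in the gap between them. The coefficient of variation was 8.18% in HFDfre and 38.1% in HFDfri, and this difference in spread was not tested. The log2 fold change was 0.19 ± 0.21, with a 95% interval of -0.26 to 0.64 and an adjusted p of 0.641 in edgeR. The interval runs from a fold of 0.832 to a fold of 1.56, which leaves out neither a modest decrease nor a modest increase. Without HFDfri 1 the log2 fold change was -0.04. With the Gm26924 share of each library as a covariate it was 0.05 ± 0.24. In the 5 libraries where that share was under 3% it was 0.28 ± 0.25.

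**Figure D1:**
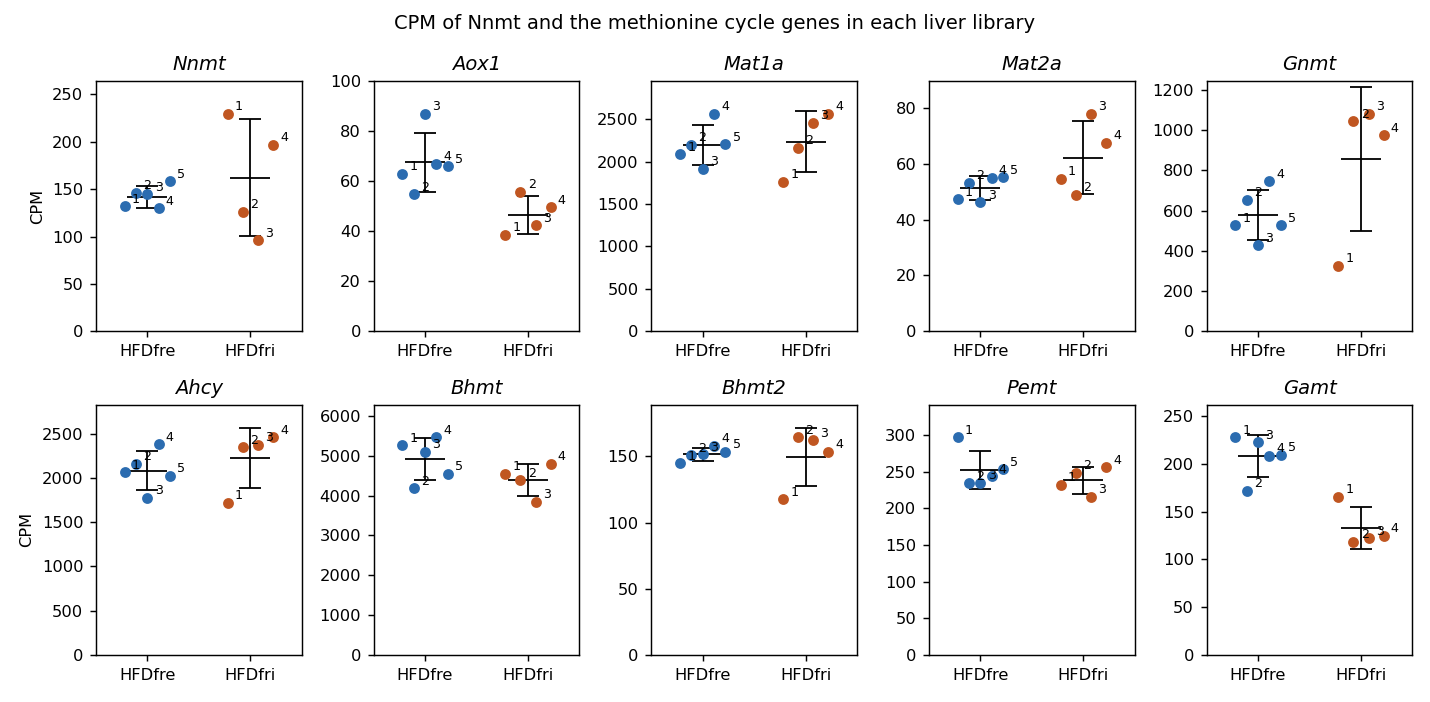
Level of each of the 10 genes in CPM on linear axes, 1 panel a gene, with 1 point per library labelled by its number within HFDfre (n = 5) or HFDfri (n = 4). Horizontal bars are means with SD error bars. In the Gamt panel all 4 HFDfri points lie below the 5 HFDfre points, while in the Nnmt panel they lie both above and below them.

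Aox1 (ENSMUSG00000063558, chr1:58029931-58106413, plus strand) encodes an aldehyde oxidase, an enzyme class that oxidises methylnicotinamide, the product of NNMT, to pyridones. Its level was 62.8, 54.7, 87.0, 67.0 and 66.0 CPM in HFDfre 1 to 5. In HFDfri 1 to 4 it was 38.6, 55.8, 42.3 and 49.6 CPM. Of the HFDfri libraries 3 were below every HFDfre library, and HFDfri 2 was above HFDfre 2 alone. The log2 fold change was -0.54 ± 0.14 (95% interval -0.85 to -0.22), which missed the threshold after adjustment in edgeR (adjusted p = 0.0840). DESeq2, the tool of the study, gave Aox1 an adjusted p of 0.0117, in a test that called 9.8% of the genes it adjusted.

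Aox3, a second liver aldehyde oxidase and a close relative of Aox1, was in the list of nicotinamide genes. Aox3 averaged 291 ± 51.6 CPM (SD) over the 5 HFDfre libraries and 377 ± 43.5 over the 4 of HFDfri, with 3 of the 4 HFDfri libraries above all of HFDfre and an edgeR adjusted p of 0.157 (log2 fold change 0.38 ± 0.14). The ratio of Aox3 to Aox1, which does not depend on the scaling of a library, was 3.26 to 5.66 in HFDfre and 6.62 to 10.3 in HFDfri on the CPM scale. The groups did not overlap in it. The pair was picked after its values were seen, so the ratio is a description with no test.

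Mat1a, the methionine adenosyltransferase of the adult liver (ENSMUSG00000037798, chr14:41105035-41124412, plus strand), was among the most abundant of the 10 genes. It averaged 2194 ± 239 CPM in HFDfre and 2237 ± 358 in HFDfri (log2 fold change 0.03 ± 0.13, 95% interval -0.26 to 0.32). Mat2a, the form that other tissues and growing liver cells use (ENSMUSG00000053907, chr6:72432799-72439558, minus strand), was at 46.1 to 55.1 CPM in HFDfre and at 54.5, 48.8, 77.9 and 67.4 in HFDfri 1 to 4. HFDfri 3 and HFDfri 4 exceeded every HFDfre library and the others did not. The log2 fold change of Mat2a was 0.28 ± 0.13 with an edgeR adjusted p of 0.251. The log2 ratio of Mat2a to Mat1a was -5.41 ± 0.0878 in HFDfre and -5.18 ± 0.228 in HFDfri, a difference of 0.24 that did not pass the exact permutation test over all 126 ways to divide the libraries into 5 and 4 (two-sided p = 0.0794, adjusted 0.238 over 3 ratios). The smallest p this test can give is 0.00794.

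The promoters of Gnmt, Ahcy and Gamt are printed because Gnmt and Ahcy had the highest Pearson's r over libraries among the 10 genes (by Spearman's rho 2 other pairs were higher) and Gamt was the gene that passed the test. Each line gives the 250 bases before the RefSeq start site, 5′ to 3′ along the gene, from GRCm38.p6. The positions are chr17:46729166-46729415 for Gnmt, chr2:155074498-155074747 for Ahcy and chr10:80261013-80261262 for Gamt, all on the minus strand. Capitals mark the letters CCACG, searched on both strands, so that CGTGG is the same match read from the other strand. These letters are the second part of the endoplasmic reticulum stress element, bound by ATF6 and XBP1.
Gnmt: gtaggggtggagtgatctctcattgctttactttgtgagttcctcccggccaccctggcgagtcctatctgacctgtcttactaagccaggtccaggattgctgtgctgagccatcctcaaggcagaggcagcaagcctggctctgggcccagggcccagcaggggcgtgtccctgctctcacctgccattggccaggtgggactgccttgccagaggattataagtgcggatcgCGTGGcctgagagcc
Ahcy: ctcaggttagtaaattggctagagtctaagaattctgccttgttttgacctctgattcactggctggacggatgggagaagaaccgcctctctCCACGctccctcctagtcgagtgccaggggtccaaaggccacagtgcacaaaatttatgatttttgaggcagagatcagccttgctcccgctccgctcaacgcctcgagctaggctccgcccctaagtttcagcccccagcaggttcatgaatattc
Gamt: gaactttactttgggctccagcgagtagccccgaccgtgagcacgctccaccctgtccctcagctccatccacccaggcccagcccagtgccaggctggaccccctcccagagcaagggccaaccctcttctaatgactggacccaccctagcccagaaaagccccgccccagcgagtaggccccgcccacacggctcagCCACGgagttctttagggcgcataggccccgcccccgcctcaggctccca

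The match starts 15 bases before the start site in Gnmt, 157 in Ahcy and 50 in Gamt. RefSeq windows were matched by symbol for 8 of the 10 genes, all but Nnmt and Mat1a, with 2 start sites for Pemt. CCACG was in the windows of 6 of these 8 (Aox1, Mat2a, Gnmt, Ahcy, Bhmt2 and Gamt), and in 28.3% of all 32851 windows of this length. The full stress element, which is CCAAT, 9 further bases and then CCACG, was in none of the 8 and in 0.113% of all windows. The C/EBP-ATF composite element, TGATGNAA, to which ATF4 binds with a partner, was in none of the 8 and in 3.45% of all. The E-box CACGTG, which overlaps CCACG where a C precedes it, was in none of the 8 and in 6.02% of all. Both strands were searched for each. These matches are letters in a window and not shown binding.

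Gnmt encodes glycine N-methyltransferase, which spends S-adenosylmethionine on glycine and is held to buffer the methyl donor (ENSMUSG00000002769, chr17:46725664-46729168, minus strand). Its level was 527, 653, 427, 745 and 527 CPM in HFDfre 1 to 5. In HFDfri 1 to 4 it was 327, 1043, 1081 and 975 CPM. HFDfri 2, 3 and 4 were above every HFDfre library, and HFDfri 1 was the lowest library of all 9. The log2 fold change was 0.57 ± 0.29 (95% interval -0.06 to 1.20), and Gnmt did not pass the edgeR test (adjusted p = 0.282). Without HFDfri 1 it was 0.83 ± 0.15 with an edgeR adjusted p of 0.0210, in a comparison where 7.65% of all tested genes were called. The call of Gnmt thus turned on 1 library. HFDfri 1 was also the HFDfri library with the lowest summed level of the pericentral hepatocyte markers (9606 CPM, against 10489 to 12091 in HFDfre and up to 10522 in HFDfri) and of the periportal markers (4120 CPM, against 4956 to 5526 and up to 5863), and the part of these in its Gnmt level was not tested.

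Pemt makes phosphatidylcholine by methylating phosphatidylethanolamine (ENSMUSG00000000301, chr11:59970614-60046489, minus strand). It varied little, with 252 ± 26.0 CPM in HFDfre and 238 ± 17.9 in HFDfri, and its log2 fold change was -0.09 ± 0.10 (95% interval -0.30 to 0.13).

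Gamt encodes guanidinoacetate N-methyltransferase, which carries out the last step of creatine synthesis (ENSMUSG00000020150, chr10:80258151-80261012, minus strand). Its level was 228, 172, 223, 208 and 209.8 CPM in HFDfre 1 to 5. In HFDfri 1 to 4 it was 166, 118, 122 and 125 CPM. All HFDfri libraries were below all HFDfre libraries, and HFDfri 1 was the HFDfri library nearest to them. Gamt was the single gene of the 10 whose groups did not overlap, and 7.69% of all tested genes had groups that did not overlap. The log2 fold change was -0.65 ± 0.12 (95% interval -0.92 to -0.38, edgeR adjusted p = 0.0358), a fold of 0.638 with an interval of 0.530 to 0.768. Its direction held in each of 18 alternative settings, at -0.78 to -0.60, and the adjusted p was under 0.05 in 8 of them. Among the 10 settings where it was above 0.05 were those without HFDfre 1 (0.0890), HFDfre 3 (0.101), HFDfre 4 (0.0608), HFDfre 5 (0.0849), HFDfri 2 (0.0514), HFDfri 3 (0.118) or HFDfri 4 (0.0789), with the Gm26924 share of each library as a covariate (0.0552), and in the 5 libraries where that share was under 3% (0.408), all in edgeR.

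**Figure D2:**
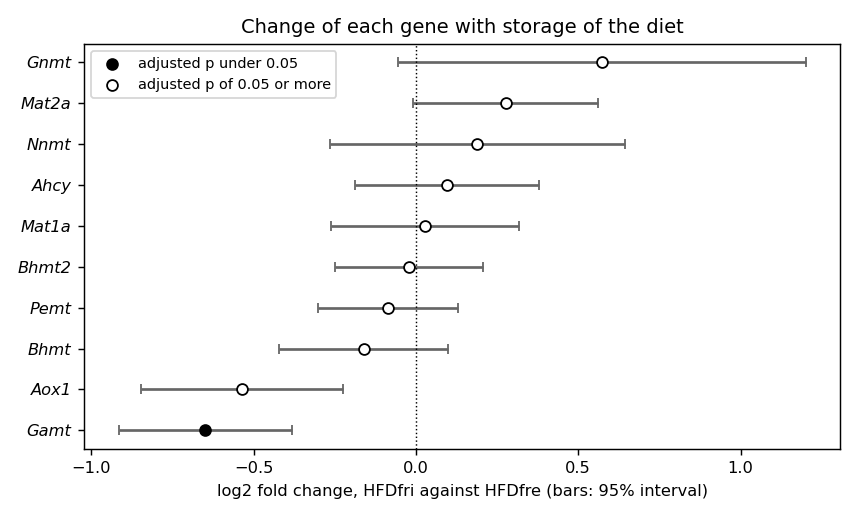
Log2 fold change, HFDfri minus HFDfre, of the 10 genes with 95% intervals from edgeR, where filled points are those with an adjusted p under 0.05. Gamt, at -0.65, is the filled point, and the interval of Aox1 (-0.85 to -0.22) also lies below 0 while its adjusted p is 0.0840.

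Ahcy hydrolyses S-adenosylhomocysteine, which otherwise inhibits methyltransferases (ENSMUSG00000027597, chr2:155059310-155074497, minus strand). It averaged 2082 ± 220.1 CPM in HFDfre and 2224 ± 340.1 in HFDfri (log2 fold change 0.10 ± 0.13, edgeR adjusted p = 0.720). HFDfri 1, at 1719.6 CPM, was again the lowest of the 9 libraries, and the other HFDfri libraries were at 2346, 2373 and 2459.8. Of the stretches of 50 bases in its transcripts, 68.7% also occur in other genes, most of them in Gm4737, so reads could be split between them in ways the counts do not show. Gm4737 itself was at 260 ± 23.3 CPM in HFDfre and 211 ± 20.1 in HFDfri (log2 fold change -0.30 ± 0.10, edgeR adjusted p = 0.129).

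Bhmt encodes betaine-homocysteine methyltransferase, which remethylates homocysteine with betaine from choline (ENSMUSG00000074768, chr13:93616675-93637961, minus strand). Bhmt2 lies 17758 bases from it (ENSMUSG00000042118, chr13:93655720-93674302, minus strand) and encodes a relative that uses S-methylmethionine as the donor. Bhmt had 4912 ± 532 CPM in HFDfre and 4392 ± 406 in HFDfri (log2 fold change -0.16 ± 0.12, edgeR adjusted p = 0.470). Bhmt2 had 152 ± 4.77 and 149 ± 21.7 CPM (-0.02 ± 0.10, edgeR adjusted p = 0.931), with HFDfri 1 at 118 CPM below every other library. The log2 ratio of Bhmt2 to Bhmt was -5.01 ± 0.163 in HFDfre and -4.89 ± 0.307 in HFDfri, and the difference of 0.13 did not pass (exact permutation p = 0.452, adjusted 0.611). Bhmt shares 25.3% of its stretches of 50 bases with other genes, mostly Gm5096, and is uncertain for the same reason as Ahcy. The other 8 genes share at most 4.99%. Mat2a, Gnmt, Ahcy and Bhmt each overlap a gene on the opposite strand, and since the use of strand in counting is not given in the sources used here, reads of the pairs cannot be told apart. The opposite gene at Gnmt, Gm26904, had 0 to 7 counts a library beside 18344 or more for Gnmt, and that at Bhmt, Gm15622, had 37 to 276 beside 255628 or more for Bhmt.

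Per kilobase of exon, the scale on which levels of different genes can be set side by side, Bhmt (813 ± 91.6 CPM per kb, SD over 9 libraries) and Ahcy (765 ± 96.5) stood at the top. The length was that of all annotated exons of a gene together, which can exceed that of the transcript in use. The order therefore depends in part on this length. Bhmt exceeded Ahcy in 5 of the 9 libraries, so their order was not settled. Mat1a (638 ± 80.2) was below Ahcy in all 9 and above Gnmt (581 ± 230.2) in 6. After a wide gap came Gamt (121 ± 31.0), Pemt (117 ± 10.8) and Nnmt (95.8 ± 25.4), which exchanged places, with Gamt above Pemt in 6 libraries and Pemt above Nnmt in 7. The order of the averages differed between the groups: in HFDfre Gamt averaged 144 CPM per kb, Pemt 120.0 and Nnmt 90.2, and in HFDfri Pemt averaged 113, Nnmt 103 and Gamt 91.9. No single HFDfri library had the order of the HFDfri averages. Nnmt was above Pemt in HFDfri 1 (145.8 beside 110.2) and HFDfri 4 (124.8 beside 121.7). It was below Gamt in HFDfri 2 and HFDfri 3, and Gamt was above Pemt in HFDfri 1. Likewise Gnmt averaged 477 CPM per kb beside 633 for Mat1a in HFDfre, and 710.1 beside 645 in HFDfri. In HFDfri 1, however, Gnmt was at 271 beside 508 for Mat1a. These changes of order were not tested. Bhmt2 (61.0 ± 5.58) was below Nnmt in 8 of 9. Mat2a (12.5 ± 2.30) and Aox1 (6.70 ± 1.69) closed the order, and each was below its upper neighbour in every library. Among the enzymes that spend S-adenosylmethionine, the level of Gnmt per kb was therefore several times that of Nnmt on average. The log2 ratio of Nnmt to Gnmt was -1.995 ± 0.374 in HFDfre and -2.34 ± 1.31 in HFDfri (difference -0.34, exact permutation p = 0.611, adjusted 0.611). In HFDfri it ran from -3.49 in HFDfri 3 to -0.51 in HFDfri 1.

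**Figure D3:**
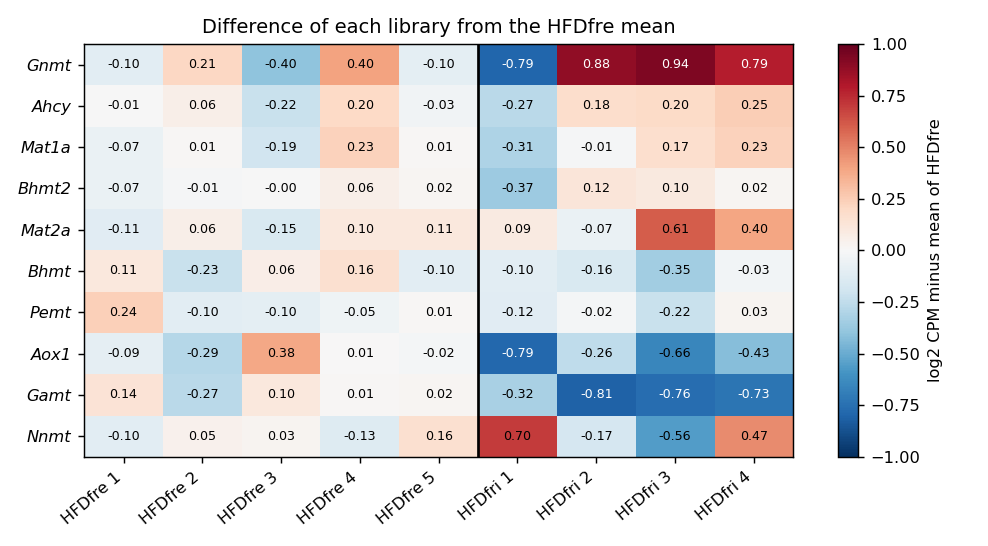
Log2 CPM of each of the 10 genes (rows) in each of the 9 libraries (columns) as the difference from that gene's mean over the 5 HFDfre libraries, with the value in each cell. The column of HFDfri 1 is positive for Nnmt (0.70) and Mat2a (0.09) and negative for all the other genes. The columns of HFDfri 2, 3 and 4 are positive for Gnmt and Ahcy.

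Some of the 10 genes followed each other across libraries, and the pairs given here were picked after their values were seen. Over the 9 libraries, Pearson's r of log2 CPM was 0.947 for Gnmt and Ahcy (Spearman's rho 0.850) and 0.926 for Mat1a and Ahcy (rho 0.867). Within groups, as deviations from the group means, r was 0.955 and 0.943, and without HFDfri 1 it was 0.915 and 0.879. Gnmt and Gamt ran in opposite directions, with r = -0.706 over all libraries, -0.843 within groups and -0.921 without HFDfri 1. For these pairs the values within groups keep HFDfri 1, which stood apart from its group in Gnmt, Ahcy and Gamt. The values without HFDfri 1 keep the difference between groups, and no value free of both was computed. Nnmt had r = -0.563 with Gnmt, but without its 2 most extreme libraries, HFDfri 1 and HFDfri 3, r was 0.141, so that relation rests on those libraries. All these values are descriptions over 9 libraries that share their scaling, and 45 pairs were computed.

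Among the 7087 genes whose mean log2 CPM was 3 or more, those whose log2 CPM was most like that of Nnmt over the 9 libraries were Fbf1 (r = 0.936), Unc45a (0.932), Saa2 (0.932), Cep110 (0.916) and Bcl3 (0.903). Without HFDfri 1 and HFDfri 3, r was 0.799, 0.921, 0.784, 0.735 and 0.860 in the same order. Saa2, an acute-phase serum amyloid A of the liver, had a log2 CPM of 3.30 to 5.37 in HFDfre, while HFDfri 4 had 6.41 and HFDfri 1 had 8.70. Bcl3, a nuclear partner of NF-kappaB, had 3.66 to 4.31 in HFDfre, 4.71 in HFDfri 4 and 5.02 in HFDfri 1. Fbf1 had 3.20 to 3.72 in HFDfre, 4.18 in HFDfri 4 and 4.52 in HFDfri 1. In the same order, Unc45a had 3.47 to 3.66, 3.81 and 3.91, and Cep110 had 4.63 to 4.74, 4.80 and 5.17. These genes were picked for following Nnmt, so their high values in HFDfri 1 and 4 come with the choice. None of these genes passed the test between the groups. The edgeR adjusted p was 0.732 for Fbf1, 0.715 for Unc45a, 0.187 for Saa2, 0.779 for Cep110 and 0.591 for Bcl3.

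**Figure D4:**
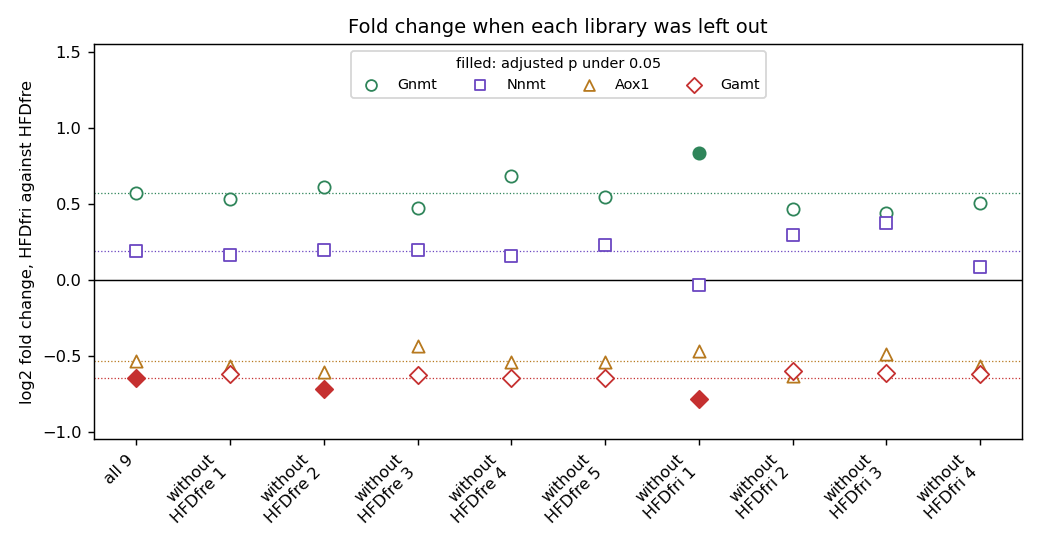
Log2 fold change, HFDfri minus HFDfre, of Gnmt, Nnmt, Aox1 and Gamt with all 9 libraries and with each library left out in turn, where filled points have an edgeR adjusted p under 0.05 and dotted lines give the value with all libraries. Leaving out HFDfri 1 takes Nnmt from 0.19 to -0.04 and Gnmt from 0.57 to 0.83, while Gamt stays between -0.78 and -0.60.

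Around the 10 genes, 9 lists of pathway genes held 102 further genes that could be tested. None passed an adjusted p of 0.05 in edgeR, 20 had an unadjusted p under 0.05 (7 higher and 13 lower in HFDfri) and DESeq2 called 10, in a test that called 9.8% of all genes it adjusted. The 20 are 19.6% of the list genes, beside 21.2% of all tested genes, and the median log2 fold change was -0.05 beside -0.01 for all genes. In methionine and homocysteine remethylation (12 genes tested) no gene had an unadjusted p under 0.05. The highest value was 0.90 ± 0.57 for Ahcyl2, a relative of Ahcy, and the lowest -0.20 ± 0.10 for Adk, the kinase that clears the adenosine which AHCY releases. Ahcyl2 averaged 9.13 ± 5.03 CPM in HFDfre, with the lowest of these libraries at 0.413, and 17.0 ± 3.89 in HFDfri. In transsulfuration and cysteine use (10 tested), 3 genes had an unadjusted p under 0.05, all lower in HFDfri. The lowest was Gclc, the catalytic subunit that starts glutathione synthesis, at 152 ± 22.9 CPM in HFDfre and 111 ± 14.2 in HFDfri (-0.46 ± 0.13, edgeR adjusted p = 0.0886), and the highest was Csad of taurine synthesis (0.27 ± 0.23).

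In choline and betaine supply (13 tested), 3 genes had an unadjusted p under 0.05 and all were lower, with Chpt1 of phosphatidylcholine synthesis the lowest (-0.38 ± 0.12) and Gnmt the highest. Of the folate one-carbon genes (20 tested), 2 were lower at an unadjusted p under 0.05, and the extremes were the scarce mitochondrial enzymes Aldh1l2 (0.79 ± 0.49) and Mthfd1l (-0.33 ± 0.39), both under 1 CPM. Of the small-molecule methyltransferases (15 tested), Gamt alone was called. In creatine synthesis and use (4 of 6 tested), Gamt was the called gene and Slc6a8, the creatine transporter, lay highest at -0.00 ± 0.20. Gatm, which makes the substrate of GAMT, was at 2.23 ± 0.614 and 1.98 ± 0.151 CPM (-0.17 ± 0.22) and is named here after its values were seen.

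Of the polyamine and methionine salvage genes (15 tested), 2 were higher and 2 lower at an unadjusted p under 0.05, from Odc1, the rate-limiting enzyme of polyamine synthesis (0.58 ± 0.20, edgeR adjusted p = 0.136), to Enoph1 of methionine salvage (-0.44 ± 0.16). In nicotinamide handling (18 of 21 tested), 1 was higher and 3 were lower, with Aox3 the highest and Nmnat3, which makes NAD in mitochondria, the lowest (-0.75 ± 0.23, edgeR adjusted p = 0.112). In the PERK-ATF4 list, which follows the link to Nnmt that the study names (9 tested), 3 were higher and 1 was lower at an unadjusted p under 0.05. Asns, an ATF4 target that makes asparagine, had the highest value but was scarce, at 0.183 ± 0.124 CPM in HFDfre and 1.21 ± 1.18 in HFDfri, with an HFDfre library at 0 (edgeR adjusted p = 0.124). Trib3, another ATF4 target, had the lowest (-0.59 ± 0.19, edgeR adjusted p = 0.118). Eif2ak3, the gene of PERK, was at 5.49 ± 0.904 CPM in HFDfre and 10.5 ± 7.95 in HFDfri (0.93 ± 0.35, edgeR adjusted p = 0.166). Eif2s1, whose product PERK phosphorylates, was at 23.2 ± 2.48 and 30.5 ± 3.67 CPM (0.39 ± 0.11, edgeR adjusted p = 0.0917). DESeq2 called both, and it also called Trib3, which was lower. Eif2ak3 and Eif2s1 are named after their values were seen. Atf4 itself, likewise named after its values were seen, was at 55.0 ± 4.96 and 58.9 ± 13.9 CPM (0.10 ± 0.14, edgeR adjusted p = 0.736). The study reported more ATF4 protein and more of the phosphorylated product of Eif2s1 in HFDfri, which RNA levels do not measure. Fat, a tissue rich in Nnmt, was represented by 7 adipocyte markers, of which 3 passed the filter on low counts, and Adipoq and Plin1 were at 0 in every library. Their sum, 2099.6 to 2466 CPM in HFDfre and 1524 to 2308 in HFDfri, was almost all Car3, which liver cells also express. Cfd averaged 31.8 ± 15.7 CPM in HFDfre and 14.3 ± 9.77 in HFDfri (-1.16 ± 0.44, edgeR adjusted p = 0.166). Cidec, a lipid droplet gene, averaged 16.8 ± 13.6 and 7.35 ± 4.99 CPM (-1.19 ± 0.57, edgeR adjusted p = 0.251). The part of these cells in the levels of Nnmt was not tested.

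**Figure D5:**
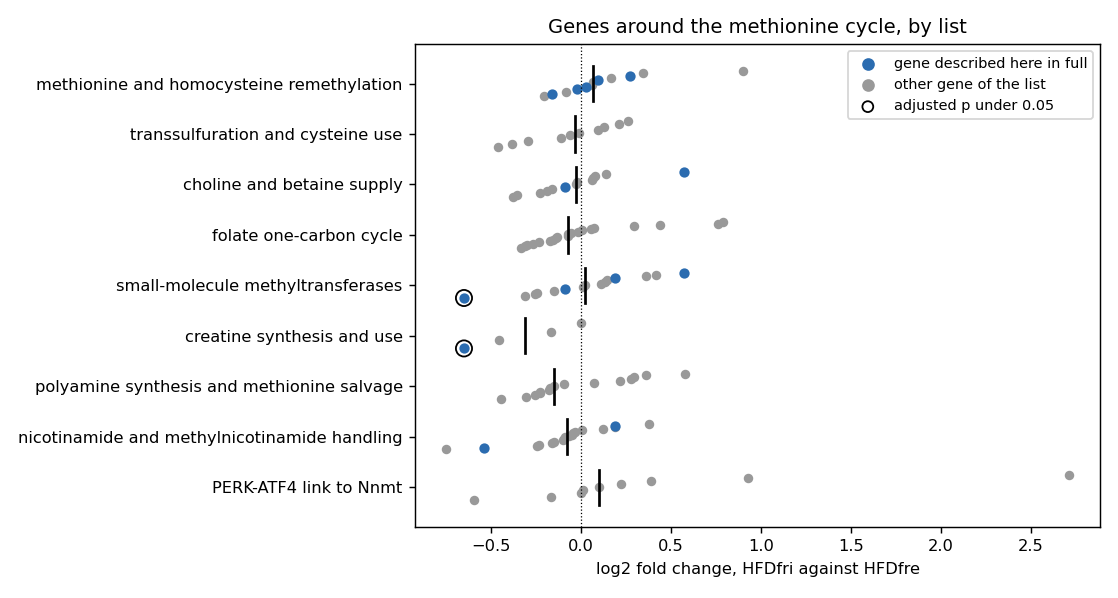
Log2 fold change, HFDfri minus HFDfre, of every tested gene in the 9 pathway lists (rows), with the 10 genes in blue, other genes in grey, a black bar at each list's median and a ring around genes with an edgeR adjusted p under 0.05. The ringed gene in both lists that hold it is Gamt, at -0.65, and the grey point farthest right is Asns.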

How the data were processed

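Liver RNA of 9 mice was sequenced. Per the labels and the study's methods, RNA was extracted with TRIzol and sequenced on Illumina instruments, and the submitters' processing notes name HISAT2, StringTie and mm10. The labels give the NEBNext Ultra kit and the study's methods KAPA RNA HyperPrep, which was not settled. Neither annotation nor strand setting is given in the sources used here. The values the authors deposited are whole numbers per gene, unscaled, and were treated as estimated counts: low values pile up at multiples of 4 (3990 values of 4, beside 2172 of 3 and 1840 of 5), so counting error is only approximate. Coordinates are from GENCODE M21 (GRCm38), which holds 96.5% of the identifiers.

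Of the 33211 genes, 19775 had a count and 14220 passed filterByExpr by group. HFDfri was tested against HFDfre by edgeR 4.0.16 (R 4.3.3, glmQLFTest) with TMM and Benjamini-Hochberg adjustment over those 14220, and rounding the counts changed none. Standard errors are the log2 fold change over the square root of F, and log2 CPM used a prior count of 2. Ratios were compared by exact permutation, two-sided. Promoter windows came from RefSeq (GRCm38.p6), and shared sequence was sought as stretches of 50 bases in GENCODE transcripts. Alternatives were DESeq2 1.42.0, other scalings, other filters, the replicate number as a block, the Gm26924 share as a covariate or under 3%, a prior count of 10, and leaving out each library.

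The 10 genes, the lists and the tests were chosen with earlier results of these data known. Apart from the 10 genes, those named are list genes past the threshold, the highest and the lowest gene of each list, and the 5 genes most like Nnmt by Pearson's r. Outside this rule, and chosen after their values were seen, are Gatm, Atf4, Eif2ak3, Eif2s1, the adipocyte markers, and the genes that share sequence or a locus with one of the 10. Of 189 list symbols 188 were matched, and markers were Kupffer, stellate, endothelial, bile duct, lymphocyte, fat, red blood and zonal hepatocyte genes. No libraries of the same group were duplicates, since counts within a group differed by at least 95.6 chi-square units per degree of freedom. Pairs across groups were not put to this check, and the highest correlation of log2 CPM between any 2 libraries was 0.977. The scripts were tested on simulated counts.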

Additional observations from a re-analysis of the deposited data

Results flagged for a closer look

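HFDfri 1 stood apart from the other 3 HFDfri libraries in 3 of the 10 genes. For Gnmt its log2 CPM was 8.35, against 9.93 to 10.08 in the others, and the gap to its nearest neighbour was 0.913 of the whole range of the group. For Ahcy it was 10.75 against 11.20 to 11.26 (0.867 of the range), and for Gamt 7.37 against 6.89 to 6.96 (0.848 of the range). Dixon's 95% critical value for 4 libraries is 0.829. The search covered 13 measures in both groups, 26 sets in all, for which chance gives about 1.3 such gaps. In Gnmt and Ahcy the library was the lowest and in Gamt the highest of its group. Its Gm26924 share was 0.931%, within the range of the other libraries, and its hepatocyte marker sum was the highest of the 9, at 109607 CPM. The part of these in its levels was not tested.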

How the results depend on the processing

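Each of the 10 genes was refitted under 18 alternatives. Aox1, Mat2a, Gnmt, Ahcy, Bhmt and Gamt kept their direction in all of them. Leaving out each library in turn gave -0.0351 to 0.373 for Nnmt, which was negative without HFDfri 1, -0.0444 to 0.116 for Mat1a and -0.0703 to 0.0663 for Bhmt2. Bhmt2 was 0.0467 with library totals in place of TMM. With the 5 libraries whose Gm26924 share was under 3%, Pemt was at 0.0042 and the log2 ratio of Bhmt2 to Bhmt differed by -0.0091. The log2 ratio of Nnmt to Gnmt differed by -0.95 without HFDfri 1 and by 0.0398 without HFDfri 3. The cause of these reversals was not tested. No ratio passed with all libraries, with a prior count of 10 or with any library left out, where the adjusted p was 0.0536 or more. With a library left out few divisions remain, and a ratio that is extreme on its own could not pass. The 0.0536, for Mat2a to Mat1a without HFDfri 2, was the lowest adjusted p such a ratio could reach there. These tests with a library left out therefore decide nothing. No test of the ratios was run in the libraries under 3%.

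Of the 10 genes, 2 were past the threshold with DESeq2 (Aox1 and Gamt), 0 with the Gm26924 share as a covariate, 0 in the libraries with a share under 3%, and 0 to 2 when each library was left out (Gnmt and Gamt without HFDfri 1). Gamt had an edgeR adjusted p of 0.0552 with the covariate and 0.408 in the libraries under 3%. Aox1 ranged from -0.68 to -0.43, with adjusted p from 0.0117 to 0.414, and Gnmt from 0.43 to 0.83, with 0.0210 to 0.661. Of all pathway list genes, the 10 included where listed, 1 was past the threshold, against 12 with DESeq2, 0 under a share of 3% (edgeR) and 0 to 7 when each library was left out. Of all genes, 150 were past it, against 1068 with DESeq2, 76 with library totals (55 higher and 21 lower, beside 71 and 79), 72 without a filter, 93 with the covariate, 2 under a share of 3%, and 6 without HFDfre 3 to 1106 without HFDfri 1. Without HFDfri 2, 235 were past it.

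The groups share replicate numbers, but correlations of the deviations of same-numbered libraries ran from -0.136 to 0.0813, so the numbers were not taken to pair the mice. With the number as a replicate block, edgeR called 0 of all genes (2536 at an unadjusted p under 0.05, 1068 by DESeq2 without the block), 0 of the 10 and 0 of the list genes, and Gamt was -0.65 with an adjusted p of 0.131.

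With 4 and 5 libraries, intervals on the log2 scale were wide where HFDfri libraries disagreed, as for Nnmt and Gnmt. Scarce list genes such as Asns rest on few counts.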
